A study of Mus musculus with 16 samples.

Results

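The transcripts described here are all those annotated to the 4 tropomyosin genes of the mouse, Tpm1, Tpm2, Tpm3 and Tpm4, 45 of the 121798 transcripts in the deposited tables. Tpm1 had 21 of them, Tpm2 had 6, Tpm3 had 16 and Tpm4 had 2. The level of a transcript is its TPM (an abundance corrected for transcript length and scaled to the same total in every library), and its share is its TPM as a percent of the summed TPM of its gene. The 16 transcripts that reached a mean share of 5% in at least 1 replicated group are described by name. The other 29 are given as sums, and 5 of these were listed at 0 in all 16 libraries.

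Tropomyosins are coiled-coil dimers that lie end to end along the actin filament and set which other proteins can bind it. Tpm1, Tpm2 and Tpm3 make several proteins each through alternative first exons, alternative internal exons and alternative last coding exons. In skeletal muscle the forms that end in exon 9a or 9a-9b sit on the thin filament with troponin and take part in calcium control of contraction, whereas forms that end in exon 9d are typical of the cytoskeleton of non-muscle cells and of smooth muscle. Cultured myoblasts hold both kinds, and the balance shifts as they fuse into myotubes.

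The libraries came from primary skeletal muscle myoblasts of Pax7-nGFP mice, which report Pax7, a transcription factor of muscle stem cells, by nuclear GFP. Each of 5 groups had 3 biological replicates from 16-week male animals. GFP+ MPC and bulk MPC were cultures called MPC in the labels, which do not spell the term out: myoblasts of 2 to 3 passages kept for 5 to 6 more in a medium with 5 µM forskolin, 5 µM RepSox and 3 µM of a compound written CHIR9901. GFP+ MPC were sorted for GFP from these cultures and bulk MPC were not sorted. GFP+ myoblasts were sorted at passage 5 to 6, differentiated myoblasts spent 3 days in differentiation medium and were at passage 4 to 5, and bulk myoblasts were unsorted at passage 3. A further GFP+ MPC library, from high-passage myoblasts of a 39-week female, has no replicate. Its myoblasts had 8 passages and were then kept for only 2 in the same 3 compounds. Age, sex, starting passage and passages in that medium thus all differed from the GFP+ MPC replicates. Library names with the same replicate number share a prefix whose meaning the labels do not give.

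Sorted cells (300000 to 500000 per sample) and unsorted cells were extracted with different RNA kits, so sorting and kit cannot be told apart in any comparison of the 2, nor can medium and passage. Depth was 19.3 to 29.1 M estimated counts per library. Myogenic markers (Pax7, Myf5, Myod1 and Des) summed to 813 TPM or more in every replicated library. The 6 markers of differentiating muscle (Myog, Myh3, Ckm, Acta1, Mymk and Tnnt3) summed to 533 to 1229 TPM in GFP+ MPC, 305 to 570 in GFP+ myoblasts, 24578 to 27839 in bulk MPC, 31196 to 33322 in differentiated myoblasts and 11086 to 15770 in bulk myoblasts. All 3 unsorted groups therefore carried muscle transcripts at high level, bulk myoblasts included. Pax7 itself was at 154 to 234 TPM in GFP+ MPC, 241 to 271 in GFP+ myoblasts, 10.2 to 27.8 in bulk MPC, 6.16 to 14.6 in differentiated myoblasts and 141 to 176 in bulk myoblasts. Endothelial markers summed to 1.52 TPM or less. Bulk MPC replicate 2 stood apart from the other unsorted libraries in Dcn and Lum, from a list of 7 fibroblast markers. Dcn was at 27.5 TPM there and at 0.451 TPM or less in the others, and Lum at 4.78 TPM, listed at 0 in the others. Pdgfra reached 2.56 TPM in bulk MPC, against 1.09 or less in the other unsorted groups. Col1a1, Col3a1, Cd34 and Ly6a reached higher levels in bulk myoblasts than in any bulk MPC library, with Col3a1 at 294 to 370 TPM against 247 or less. Several values that moved without bulk MPC replicate 2 are given with their results, and others only within a range over fits that left out a library. In such bulk RNA, fewer cells of a type and less RNA per cell cannot be told apart.

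Sequences of the alternative last coding exons show what separates the muscle and cytoskeletal forms, and the shares below turn on them. Letters follow the order of the exons along each gene in the GENCODE M21 annotation (GRCm38). Each line gives the last 80 coding bases, 5′ to 3′, with the stop codon in capitals. In Tpm1 and Tpm3 the 9a-9b end is split over 2 exons, so its coordinates span an intron. Tpm1 9a-9b lies at chr9:67028167-67029742 (minus strand) in transcript Tpm1-205, and Tpm1 9d at chr9:67023362-67023441 in Tpm1-216. Tpm2 9a lies at chr4:43515924-43516003 (minus strand) in Tpm2-202, and Tpm2 9d at chr4:43514782-43514861 in Tpm2-203. Tpm3 9a-9b lies at chr3:90091013-90091931 (plus strand) in Tpm3-205, and Tpm3 9d at chr3:90099528-90099607 in Tpm3-201.
Tpm1 9a-9b: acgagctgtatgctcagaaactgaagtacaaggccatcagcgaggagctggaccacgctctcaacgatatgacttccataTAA
Tpm2 9a: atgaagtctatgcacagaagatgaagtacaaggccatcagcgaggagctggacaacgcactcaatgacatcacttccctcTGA
Tpm3 9a-9b: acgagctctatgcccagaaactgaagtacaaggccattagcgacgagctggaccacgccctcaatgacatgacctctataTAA
Tpm1 9d: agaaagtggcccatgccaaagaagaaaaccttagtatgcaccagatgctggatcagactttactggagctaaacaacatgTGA
Tpm2 9d: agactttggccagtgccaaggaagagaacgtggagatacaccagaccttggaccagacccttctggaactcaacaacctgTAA
Tpm3 9d: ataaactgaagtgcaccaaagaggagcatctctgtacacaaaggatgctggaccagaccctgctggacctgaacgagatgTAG
The muscle-type ends of the 3 genes were alike, with 81.2% to 88.8% identical bases between any pair. The 9d ends had 60.0% to 71.2% identical bases between genes. Within a gene the 2 kinds of end shared 41.2% to 45.0% of their bases.

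The internal choice between exons 6a and 6b, which changes the middle of the protein, is the other difference among the leading Tpm1 and Tpm2 forms. These exons are shown because Tpm1-213 and Tpm1-203, which were each listed at 0 in some groups and present in others, both carry 6a. Tpm1 6a lies at chr9:67032466-67032541, Tpm1 6b at chr9:67031951-67032026, Tpm2 6a at chr4:43519003-43519078 and Tpm2 6b at chr4:43518644-43518719, all on the minus strand of GRCm38.
Tpm1 6a: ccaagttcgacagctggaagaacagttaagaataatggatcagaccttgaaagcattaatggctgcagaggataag
Tpm1 6b: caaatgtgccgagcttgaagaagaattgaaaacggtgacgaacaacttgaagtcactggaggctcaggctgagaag
Tpm2 6a: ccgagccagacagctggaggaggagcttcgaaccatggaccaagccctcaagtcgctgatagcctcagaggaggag
Tpm2 6b: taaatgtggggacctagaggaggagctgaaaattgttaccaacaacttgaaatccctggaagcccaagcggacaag
Tpm1 6a and 6b were identical at 56.6% of their 76 bases and Tpm2 6a and 6b at 53.9%.

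Gene sums were considered first, since they set the scale of every share. Tpm1 stood at 275, 926 and 611 TPM in GFP+ MPC, 1997, 2039 and 1862 in GFP+ myoblasts, 4879, 3916 and 4085 in bulk MPC, 3872, 3334 and 3377 in differentiated myoblasts and 2574, 2458 and 2753 in bulk myoblasts. No 2 groups overlapped, and the order from low to high was GFP+ MPC, GFP+ myoblasts, bulk myoblasts, differentiated myoblasts and bulk MPC, the last 2 close together. Tpm2 stood at 449, 842 and 571 TPM in GFP+ MPC, 754, 808 and 503 in GFP+ myoblasts, 5096, 4646 and 5048 in bulk MPC, 6283, 6246 and 6010 in differentiated myoblasts and 2757, 2189 and 2988 in bulk myoblasts. The sorted groups overlapped, and both lay far below the unsorted groups.

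Tpm3 and Tpm4 followed another order. Tpm3 stood at 240, 230 and 291 TPM in GFP+ MPC, 521, 530 and 545 in GFP+ myoblasts, 77.3, 117 and 84.5 in bulk MPC, 338, 270 and 245 in differentiated myoblasts and 359, 370 and 316 in bulk myoblasts. Tpm4, a cytoskeletal tropomyosin with 1 annotated coding transcript, Tpm4-201, stood at 199, 173 and 256 TPM in GFP+ MPC, 433, 542 and 443 in GFP+ myoblasts, 17.1, 50.8 and 19.2 in bulk MPC, 11.8, 21.4 and 10.8 in differentiated myoblasts and 219, 221 and 189 in bulk myoblasts. Tpm4 was highest in GFP+ myoblasts and lowest in bulk MPC and differentiated myoblasts, with bulk MPC replicate 2 above the other 5 libraries of those 2 groups. Summed fibroblast markers ran from 518 to 745 TPM in GFP+ MPC, 330 to 499 in GFP+ myoblasts, 20.7 to 302 in bulk MPC, 14.9 to 45.5 in differentiated myoblasts and 320 to 390 in bulk myoblasts. Most of each sum was Col3a1, with means of 597, 403, 103, 26.7 and 332 TPM in that order. Each other listed fibroblast marker averaged 4.02 TPM or less in GFP+ MPC, and the highest such mean in the other groups was 18.1 TPM, for Ly6a in bulk myoblasts. The sum thus mainly follows Col3a1, and fibroblast content was not measured. The part of these markers in the Tpm4 levels was not tested.

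**Figure D1:**
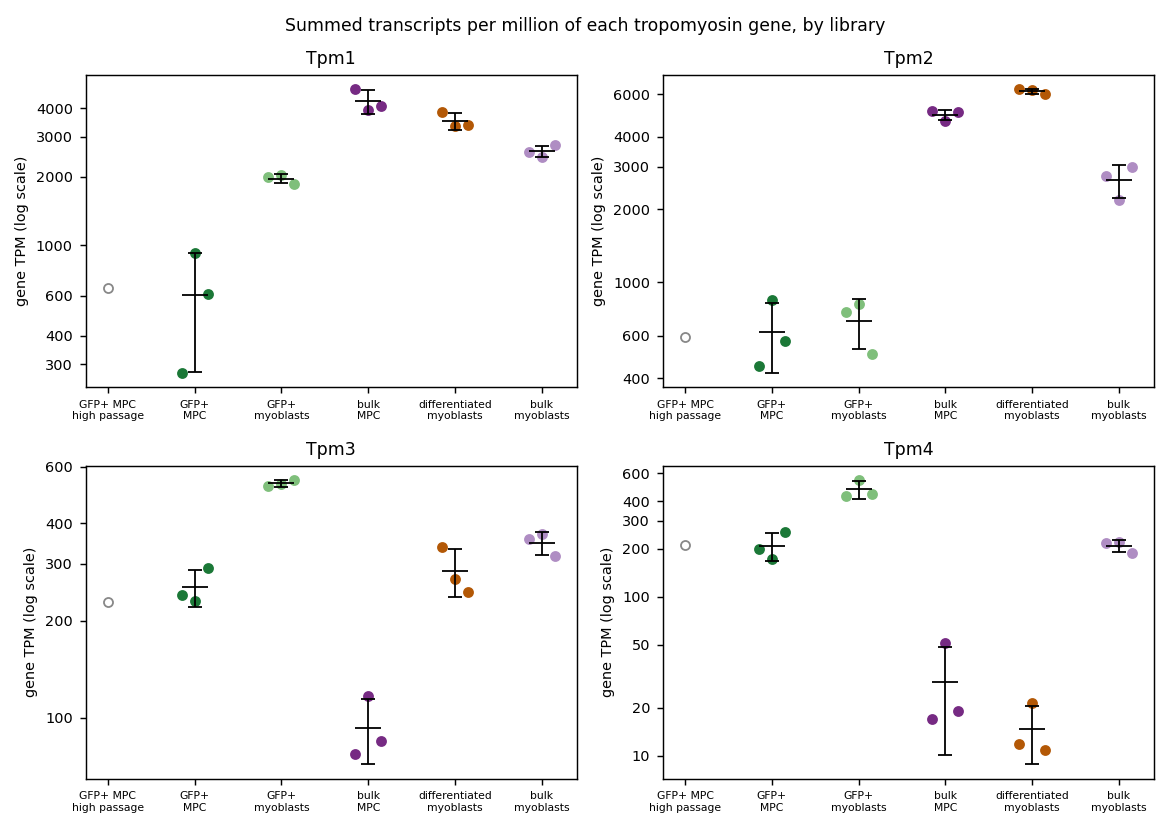
Summed TPM of each tropomyosin gene (log axis) in each library; filled points are replicates, bars are the mean and SD of 3, and the open point is the high-passage library without replicate. Tpm1 and Tpm2 are highest in bulk MPC and differentiated myoblasts, where Tpm4 is at 10.8 to 50.8 TPM.

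Against GFP+ myoblasts, GFP+ MPC held less of 3 of the 4 genes by edgeR's quasi-likelihood test, where 48.6% of all 15533 genes tested passed. Tpm1 fell by 1.71 ± 0.29 on the log2 scale (SE, adjusted p = 0.000337 by edgeR), Tpm3 fell by 0.94 ± 0.14 (adjusted p = 0.000151) and Tpm4 fell by 1.08 ± 0.33 (adjusted p = 0.0154). The Tpm4 call was lost without GFP+ MPC replicate 2 (adjusted p = 0.0576 by edgeR) or GFP+ myoblasts replicate 2 (adjusted p = 0.0501). Tpm2 differed by -0.03 ± 0.23 (adjusted p = 0.915 by edgeR).

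Against bulk myoblasts, bulk MPC differed in all 4 genes, where 58.5% of all genes passed. Tpm1 rose by 1.04 ± 0.29 (SE, adjusted p = 0.00676 by edgeR) and Tpm2 by 1.30 ± 0.23 (adjusted p = 0.000339). Tpm3 fell by 1.68 ± 0.15 (adjusted p = 1.35e-06 by edgeR) and Tpm4 fell by 2.39 ± 0.34 (adjusted p = 6.68e-05), or -2.98 ± 0.282 without bulk MPC replicate 2.

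Differentiated myoblasts rose above bulk myoblasts in Tpm2 (1.35 ± 0.23, adjusted p = 0.000298 by edgeR) and Tpm4 fell by 3.63 ± 0.37 (adjusted p = 4.66e-06), where 54.2% of genes passed. Tpm1 was at 0.48 ± 0.28 (adjusted p = 0.168 by edgeR), but passed with the 2 groups alone (0.49 ± 0.093, adjusted p = 0.00252), and the groups' TPM do not overlap. Tpm3 fell by 0.66 ± 0.14 in counts (adjusted p = 0.00172 by edgeR), but counts scaled from TPM, which remove transcript length, gave -0.10 ± 0.14 (adjusted p = 0.573). The Tpm3 transcripts that changed places between these groups, described below, are 1139 and 2230 bases long.

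Bulk MPC and differentiated myoblasts, where 43.8% of genes passed, differed by -0.05 ± 0.23 in Tpm2 (adjusted p = 0.876 by edgeR). In TPM the 2 groups did not overlap in Tpm2, and the bulk MPC mean was 0.798 of the differentiated mean, so counts and TPM differ here. The counts were scaled between libraries by edgeR's TMM factors and the TPM were not. Tpm1 differed by 0.56 ± 0.28 (adjusted p = 0.125 by edgeR), and passed with the 2 groups alone (0.51 ± 0.148, adjusted p = 0.0241). Bulk MPC held less Tpm3, at -1.02 ± 0.14 (adjusted p = 0.000113 by edgeR). Tpm4 was higher in bulk MPC by 1.24 ± 0.34 (adjusted p = 0.0101 by edgeR), a call that rests on bulk MPC replicate 2: without it the value was 0.65 ± 0.254 (adjusted p = 0.0615). It was also lost with the 2 groups alone (1.19 ± 0.434, adjusted p = 0.0532 by edgeR).

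Sorting for GFP went with less Tpm2 and more Tpm3 and Tpm4 in both cultures. GFP+ MPC lay below bulk MPC, at -3.17 ± 0.25 in Tpm2 (adjusted p = 1.56e-07 by edgeR) and at -3.04 ± 0.31 in Tpm1 (adjusted p = 1.41e-06), and above it by 1.40 ± 0.15 in Tpm3 (adjusted p = 1.91e-06) and 2.38 ± 0.34 in Tpm4 (adjusted p = 3.78e-05). All 4 genes passed there, as did 66.6% of all genes, and Tpm4 ran from 2.14 to 2.97 over the 6 fits that left out a library. GFP+ myoblasts lay below bulk myoblasts in Tpm2, at -1.83 ± 0.23 (adjusted p = 8.15e-05 by edgeR), and above in Tpm3 by 0.65 ± 0.14 (adjusted p = 0.00442) and in Tpm4 by 1.07 ± 0.33 (adjusted p = 0.0267). Here 30% of all genes passed, Tpm1 was at -0.29 ± 0.28 (adjusted p = 0.473 by edgeR; -0.31 ± 0.0877 and adjusted p = 0.0351 with the 2 groups alone), and the Tpm4 call was lost in 5 of 6 fits that left out a library. The difference between the 2 sort effects was itself tested, and all 4 genes passed (37.1% of all genes). GFP+ myoblasts were at passage 5 to 6 and bulk myoblasts at passage 3, so sort and passage cannot be told apart in that culture. The markers of differentiating muscle given in the opening moved with these differences, and their part in them was not tested.

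The share of each gene in the summed tropomyosin TPM differed between the groups. The 4 genes summed to 1163, 2170 and 1729 TPM in GFP+ MPC and 3705, 3919 and 3353 in GFP+ myoblasts, and to 8730 to 10069 in bulk MPC, 9644 to 10504 in differentiated myoblasts and 5238 to 6247 in bulk myoblasts. Tpm2 held 38.6%, 38.8% and 33.0% of the sum in GFP+ MPC, against 20.4%, 20.6% and 15% in GFP+ myoblasts. Tpm4 held 7.95% to 17.1% in GFP+ MPC and 11.7% to 13.8% in GFP+ myoblasts, but 0.582% or less in bulk MPC, 0.217% or less in differentiated myoblasts and 3.03% to 4.22% in bulk myoblasts.

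Transcript shares were then compared as log2 odds, the log2 of a share over the rest of its gene, with limma across 41016 transcripts of all genes. Of the 45 tropomyosin transcripts 34 passed the filter on low values, 15 of Tpm1, 5 of Tpm2 and 14 of Tpm3. Transcripts were also summed into classes with the same start codon or the same stop codon, which gave 18 tested classes among 13836. For Tpm1 the class is the firmer measure, because 6 of its 7 named transcripts have no stretch of 31 bases of their own, and the split among them comes from the estimation of the authors' tool.

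Tpm1 showed the plainest switch. Its 9a-9b end, carried by Tpm1-203, Tpm1-204 and Tpm1-205, held 44.6%, 53.9% and 43.9% of Tpm1 TPM in GFP+ MPC, 38.9%, 34.2% and 17.8% in GFP+ myoblasts, 96.0%, 93.6% and 95.1% in bulk MPC, 95.0%, 93.1% and 93.1% in differentiated myoblasts and 67.9%, 63.6% and 72.2% in bulk myoblasts. No sorted library overlapped an unsorted one, and bulk MPC and differentiated myoblasts both lay above bulk myoblasts. The 9d end, carried by 7 annotated transcripts, held 34.0%, 24.5% and 37.8% in GFP+ MPC, 39.2%, 42.3% and 60.1% in GFP+ myoblasts, 1.28%, 1.95% and 1.59% in bulk MPC, 1.75%, 3.04% and 2.85% in differentiated myoblasts and 17.5%, 19.4% and 13.7% in bulk myoblasts. The 9d shares ran in the opposite order of the 9a-9b shares in these group means.

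**Figure D2:**
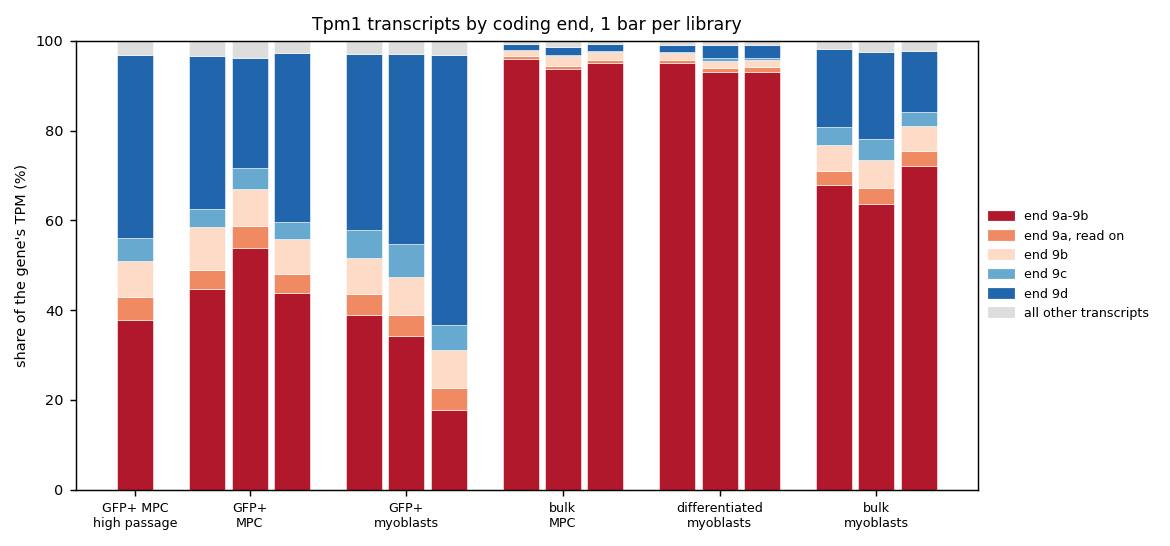
Share of Tpm1 TPM (percent) by coding end, 1 stacked bar per library, grouped from the high-passage library on the left to bulk myoblasts on the right. The 9a-9b end fills 93.1% to 96.0% of the bars of bulk MPC and differentiated myoblasts, and 17.8% to 53.9% of those of the sorted replicates.

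Bulk MPC exceeded bulk myoblasts in the odds of the 9a-9b end by 3.16 ± 0.34 on the log2 scale (SE, adjusted p = 0.000198 by limma), and the 9d end fell by 3.63 ± 0.34 (adjusted p = 0.000107). Differentiated myoblasts exceeded bulk myoblasts by 2.83 ± 0.34 for 9a-9b (adjusted p = 0.000354 by limma), and 9d fell by 2.98 ± 0.34 (adjusted p = 0.000234). Between bulk MPC and differentiated myoblasts the 9a-9b odds differed by 0.33 ± 0.34 (adjusted p = 0.736 by limma). In TPM the 9d forms were at 62.3, 76.4 and 64.9 in bulk MPC and 67.7, 101 and 96.2 in differentiated myoblasts, against 449, 477 and 378 in bulk myoblasts, so both the share and the level were lower. Myh11, the myosin heavy chain of smooth muscle, was at 0.615 TPM or less in every library. The summed markers of smooth muscle and pericytes ran from 346 to 926 TPM in GFP+ MPC, 346 to 841 in GFP+ myoblasts, 278 to 381 in bulk MPC, 1100 to 1269 in differentiated myoblasts and 1409 to 1832 in bulk myoblasts. Acta2 was the largest part of the sum except in bulk MPC, with means of 480, 486, 149, 952 and 1224 TPM in that order. The listed markers did not move together: Smtn averaged 163 TPM in bulk MPC and 198 in differentiated myoblasts against 112 in bulk myoblasts, while Tagln averaged 9.84 and 13.0 against 155. Of 6 tested between the sorted groups, 2 were higher and 1 lower in GFP+ MPC. Pdgfrb was higher by 4.57 ± 0.97 (adjusted p = 0.00175 by edgeR), with means of 29.4 and 1.3 TPM. Myh11 was higher by 4.44 ± 0.84 (adjusted p = 0.00078 by edgeR). Rgs5 was lower, at -2.58 ± 0.86 (adjusted p = 0.0235 by edgeR), with means of 5.97 and 39.4 TPM. The part of the listed markers in the 9d levels was not tested.

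The minor ends 9b, 9c and 9a read on, in which the 9a exon continues past its splice site, moved with 9d. End 9b held 1.25% to 2.04% of Tpm1 in bulk MPC and 1.55% to 1.62% in differentiated myoblasts, against 5.63% to 6.26% in bulk myoblasts. Its odds fell by 1.95 ± 0.17 in bulk MPC (adjusted p = 6.33e-05 by limma) and fell by 1.96 ± 0.17 in differentiated myoblasts (adjusted p = 3.34e-05). End 9c held 0.085% to 0.234% in bulk MPC and 0.111% to 0.496% in differentiated myoblasts, against 2.95% to 4.68% in bulk myoblasts, and its odds fell by 4.52 ± 0.47 in bulk MPC (adjusted p = 0.000163 by limma) and fell by 3.73 ± 0.47 in differentiated myoblasts (adjusted p = 0.00046). The odds of 9a read on fell by 2.17 ± 0.17 in bulk MPC (adjusted p = 3.49e-05 by limma) and fell by 1.93 ± 0.17 in differentiated myoblasts (adjusted p = 3.34e-05).

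Between the sorted groups no Tpm1 end passed. GFP+ MPC had 9a-9b odds above those of GFP+ myoblasts by 1.12 ± 0.34 (adjusted p = 0.101 by limma), and 9d odds at -0.94 ± 0.34 (adjusted p = 0.174). GFP+ myoblasts replicate 3 had the lowest 9a-9b share of all 16 libraries. Against their unsorted cultures, 9a-9b odds were lower, at -4.39 ± 0.34 in GFP+ MPC (adjusted p = 3.13e-06 by limma) and at -2.35 ± 0.34 in GFP+ myoblasts (adjusted p = 0.00132; 0.0559 with the 2 groups alone), and 9d odds were higher by 4.85 ± 0.34 (adjusted p = 1.28e-06) and 2.15 ± 0.34 (adjusted p = 0.00253).

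Within Tpm1, single transcripts were present in some groups and listed at 0 in others. Tpm1-205, the form with 1a, 6b and 9a-9b that makes the striated muscle protein, was the leading one, at 123, 499 and 268 TPM in GFP+ MPC, 777, 698 and 332 in GFP+ myoblasts, 4106, 3268 and 3412 in bulk MPC, 3203, 2738 and 2769 in differentiated myoblasts and 1749, 1564 and 1958 in bulk myoblasts. Tpm1-203, the same form but with 6a, was at 577, 399 and 473 TPM in bulk MPC and 476, 366 and 376 in differentiated myoblasts, at 30 TPM in 1 bulk myoblast library and listed at 0 in the other 2 and in every sorted library. Its share rose in bulk MPC (adjusted p = 0.00296 by limma) and in differentiated myoblasts (adjusted p = 0.00229) against bulk myoblasts, and neither passed with the 2 groups alone (adjusted p = 0.0661 and 0.0819).

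Tpm1-213, a 6a form that ends in 9d, showed the reverse. It was at 12.2, 65.1 and 53.5 TPM in GFP+ MPC, 381, 378 and 594 in GFP+ myoblasts and 193, 220 and 93.2 in bulk myoblasts, and was listed at 0 in all 6 libraries of bulk MPC and differentiated myoblasts. Its share fell in both against bulk myoblasts (adjusted p = 2.49e-07 and 3.68e-07 by limma). It was the one Tpm1 transcript whose share passed between the sorted groups, where its odds fell by 2.05 ± 0.39 in GFP+ MPC (adjusted p = 0.0136 by limma). That call was lost without GFP+ MPC replicate 1 (adjusted p = 0.0529 by limma) or GFP+ myoblasts replicate 3 (adjusted p = 0.0552), with the 2 groups alone (adjusted p = 0.0988) and with edgeR's diffSpliceDGE (-1.58, adjusted p = 0.298). Complete coding transcripts with 6a held 4.43% to 8.75% of Tpm1 in GFP+ MPC, 18.6% to 31.9% in GFP+ myoblasts, 10.2% to 11.8% in bulk MPC, 11% to 12.3% in differentiated myoblasts and 4.47% to 8.94% in bulk myoblasts. In bulk MPC and differentiated myoblasts this share was that of Tpm1-203, which ends in 9a-9b, and in both sorted groups that of Tpm1-213, which ends in 9d. Neither transcript has a stretch of 31 bases of its own, so this pairing of 6a with an end, and the values listed at 0, rest on the estimation of the authors' tool.

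Tpm1-216, with 6b and 9d, was at 56.0, 66.4 and 58.8 TPM in bulk MPC and 64.9, 97.2 and 90.1 in differentiated myoblasts, against 229, 223 and 267 in bulk myoblasts. Its odds fell by 2.82 ± 0.22 in bulk MPC (adjusted p = 4.28e-05 by limma) and fell by 2.07 ± 0.22 in differentiated myoblasts (adjusted p = 0.000236; 0.119 with edgeR's diffSpliceDGE). Tpm1-211, which starts at the downstream exon 1b and encodes a short cytoskeletal protein, was at 39.9, 22.5 and 65.0 TPM in GFP+ MPC and 77.6, 147 and 147 in GFP+ myoblasts, and at 1.53 TPM or listed at 0 in the 9 unsorted libraries. Its share was higher in GFP+ MPC than in bulk MPC (adjusted p = 2.78e-06 by limma) and in GFP+ myoblasts than in bulk myoblasts (adjusted p = 3.88e-05). Tpm1-207, which ends in 9b, and Tpm1-210, which ends in 9c, made up most of those minor ends. The 14 unnamed Tpm1 transcripts held 1.68% to 11% of the gene per library.

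The start of Tpm1 differed mainly with the sort. Transcripts starting at 1b held 16.0%, 3.95% and 12.2% of Tpm1 in GFP+ MPC, 5.18%, 8.60% and 9.02% in GFP+ myoblasts, 0.135% to 0.252% in bulk MPC, 0.0927% to 0.153% in differentiated myoblasts and 0.696% to 1.09% in bulk myoblasts. The odds of 1b were higher by 5.64 ± 0.47 in GFP+ MPC than in bulk MPC (adjusted p = 6.25e-06 by limma) and by 3.17 ± 0.47 in GFP+ myoblasts than in bulk myoblasts (adjusted p = 0.00157). They fell by 2.70 ± 0.47 in differentiated against bulk myoblasts (adjusted p = 0.00436 by limma) and fell by 2.09 ± 0.47 in bulk MPC against bulk myoblasts (adjusted p = 0.0196), the last a call lost without bulk MPC replicate 1 (adjusted p = 0.079) or bulk myoblasts replicate 2 or 3 (adjusted p = 0.0811 and 0.0529). GFP+ MPC and GFP+ myoblasts differed by 0.37 ± 0.47 (adjusted p = 0.777 by limma).

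Tpm3 changed both its start and its end. Tpm3-205 carries 1a, 6b and 9a-9b and makes the tropomyosin of slow muscle fibres. Its TPM were 5.14, 5.68 and 6.33 in GFP+ MPC, 3.71, 4.61 and 5.07 in GFP+ myoblasts, 25.0, 18.8 and 17.5 in bulk MPC, 179, 122 and 99.0 in differentiated myoblasts and 30.5, 8.95 and 30.8 in bulk myoblasts. Its share of Tpm3 was 32.3%, 16.1% and 20.7% in bulk MPC and 53.1%, 45.3% and 40.3% in differentiated myoblasts, against 8.49%, 2.42% and 9.75% in bulk myoblasts. Differentiated myoblasts were highest in both level and share, while bulk MPC overlapped bulk myoblasts in level and exceeded them in share, where the gene sum was lower.

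The odds of Tpm3-205 rose by 3.73 ± 0.46 in differentiated against bulk myoblasts (adjusted p = 0.000579 by limma) and by 2.18 ± 0.46 in bulk MPC against bulk myoblasts (adjusted p = 0.0191). The second call was lost without bulk MPC replicate 1 (adjusted p = 0.0792 by limma) or bulk MPC replicate 3 (adjusted p = 0.055), and with the 2 groups alone (adjusted p = 0.133). Bulk MPC and differentiated myoblasts differed by -1.55 ± 0.46 (adjusted p = 0.137 by limma). GFP+ MPC and GFP+ myoblasts, with shares of 2.14% to 2.47% and 0.712% to 0.931% that did not overlap, differed by 1.43 ± 0.46 (adjusted p = 0.133 by limma).

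Tpm3-201, which carries 1b, 6a and 9d, is the cytoskeletal form. It held 55.9%, 51.4% and 56.8% of Tpm3 in GFP+ MPC, 56.1%, 53.1% and 63.3% in GFP+ myoblasts, 13.3%, 25.2% and 13.5% in bulk MPC, 2.44%, 3.71% and 4.03% in differentiated myoblasts and 35.5%, 43.0% and 28.8% in bulk myoblasts. The sorted groups overlapped, and differentiated myoblasts were lowest. Its odds fell by 3.94 ± 0.32 in differentiated against bulk myoblasts (adjusted p = 3.85e-05 by limma) and were higher by 2.52 ± 0.32 in bulk MPC than in differentiated myoblasts (adjusted p = 0.00211; 0.0776 with the 2 groups alone), the only tropomyosin transcript of 34 tested that passed in that comparison. In bulk MPC against bulk myoblasts Tpm3-201 fell by 1.42 ± 0.32 (adjusted p = 0.024 by limma), and leaving out a library gave adjusted p of 0.0059 to 0.105. That call was also lost on shares of estimated counts (adjusted p = 0.097 by limma), with the 2 groups alone (adjusted p = 0.113) and with edgeR's diffSpliceDGE (adjusted p = 0.505). In TPM it was at 10.3, 29.6 and 11.4 in bulk MPC and 8.24, 9.99 and 9.88 in differentiated myoblasts, against 128, 159 and 91.2 in bulk myoblasts.

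**Figure D3:**
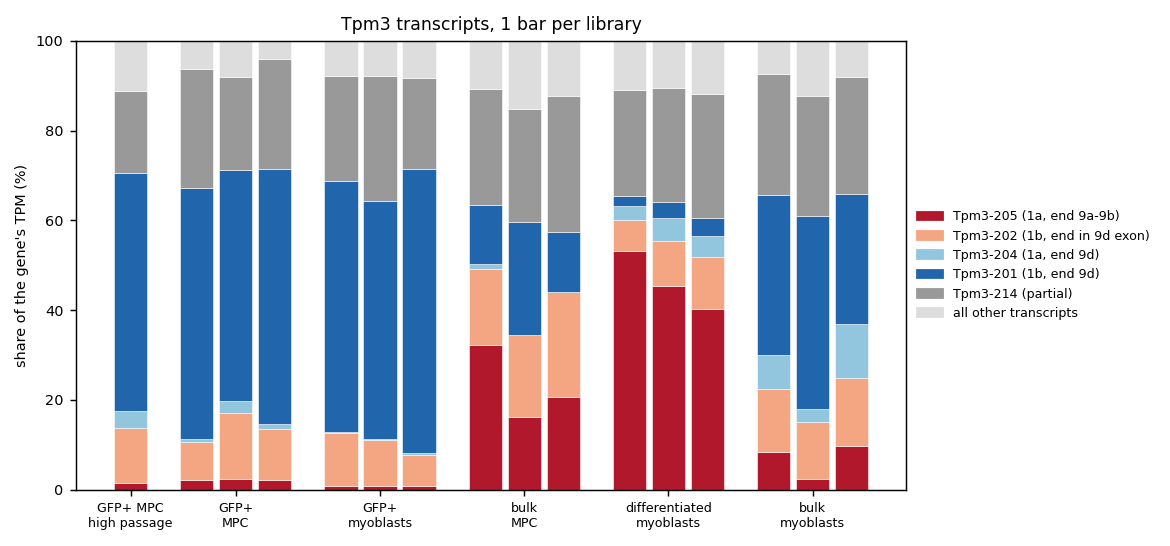
Share of Tpm3 TPM (percent) by transcript, 1 stacked bar per library. Tpm3-205 reaches 40.3% to 53.1% in differentiated myoblasts, and Tpm3-201 holds 51.4% to 63.3% in the sorted replicates.

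Over all Tpm3 transcripts that end in 9d, the odds fell by 1.84 ± 0.28 in bulk MPC (adjusted p = 0.00162 by limma) and fell by 3.19 ± 0.28 in differentiated myoblasts (adjusted p = 3.81e-05), each against bulk myoblasts. They were higher by 1.35 ± 0.28 in bulk MPC than in differentiated myoblasts (adjusted p = 0.0275 by limma), a call lost without bulk MPC replicate 2 (adjusted p = 0.0784) or differentiated myoblasts replicate 1 (adjusted p = 0.0978), on shares of estimated counts (adjusted p = 0.112) and with the 2 groups alone (adjusted p = 0.201). Starts at 1b held 64.3% to 68.8% of Tpm3 in GFP+ MPC, 63.2% to 70.3% in GFP+ myoblasts, 31.1% to 44.3% in bulk MPC, 9.86% to 16.3% in differentiated myoblasts and 44.8% to 55.7% in bulk myoblasts. The odds of 1b were higher by 1.94 ± 0.25 in bulk MPC than in differentiated myoblasts (adjusted p = 0.00183 by limma; 0.0649 with the 2 groups alone) and fell by 2.69 ± 0.25 in differentiated against bulk myoblasts (adjusted p = 5.88e-05). Bulk MPC against bulk myoblasts gave -0.75 ± 0.25 (adjusted p = 0.105 by limma).

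Tpm3-202 starts at 1b and splices 9a into the 9d exon, where it reaches a stop codon of its own. It held 8.49% to 14.7% of Tpm3 in GFP+ MPC, 6.73% to 11.9% in GFP+ myoblasts, 16.8% to 23.3% in bulk MPC, 6.92% to 11.5% in differentiated myoblasts and 12.7% to 15.2% in bulk myoblasts, and passed in none of the 6 comparisons. Tpm3-204, with 1a and 9d, held 0.6% to 2.63% in GFP+ MPC, 0.128% to 0.449% in GFP+ myoblasts, 1.07% or less in bulk MPC, 3.06% to 5.16% in differentiated myoblasts and 2.78% to 12% in bulk myoblasts. Its odds were lower in GFP+ myoblasts than in bulk myoblasts, at -4.25 ± 0.65 (adjusted p = 0.00256 by limma; 0.0828 on shares of estimated counts), and in bulk MPC they fell by 3.17 ± 0.65 against bulk myoblasts (adjusted p = 0.0156). The second call was lost in 4 of 6 fits that left out a library, that without bulk MPC replicate 2 among them (-2.81, adjusted p = 0.0547 by limma). It was also lost with the 2 groups alone (adjusted p = 0.0818 by limma). Tpm3-214, an annotated partial transcript of 459 bases with no end, held 20.2% to 30.2% in every replicated library and passed in no comparison. The 11 unnamed Tpm3 transcripts held 4.04% to 15.3%. One of them, Tpm3-207, outside the 5% rule and named after its values were seen, had higher odds in GFP+ MPC than in GFP+ myoblasts, by 1.37 ± 0.30 (adjusted p = 0.031 by limma). Most 31-base stretches of Tpm3-201 (75.7%) also occur in other genes, chiefly the Tpm3 copy Tpm3-rs7, which was listed at 1.32 TPM or less in every library.

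The windows of 250 bases upstream of the 2 Tpm3 starts are shown because Tpm3-205, which starts at 1a, rose in share in differentiated against bulk myoblasts while the 1b starts fell. The other 1a form described, Tpm3-204, was at -0.62 ± 0.65 there (adjusted p = 0.664 by limma, as a start class). They were taken from RefSeq on GRCm38.p6, plus strand, at chr3:90072401-90072650 for 1a and chr3:90079271-90079520 for 1b. Capitals mark CAGCTG, an E-box that reads the same on both strands.
Tpm3 1a window: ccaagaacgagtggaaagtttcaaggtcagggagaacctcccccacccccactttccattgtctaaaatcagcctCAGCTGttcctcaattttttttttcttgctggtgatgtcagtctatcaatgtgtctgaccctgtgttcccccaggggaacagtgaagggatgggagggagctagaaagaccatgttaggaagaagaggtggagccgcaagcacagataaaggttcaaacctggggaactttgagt
Tpm3 1b window: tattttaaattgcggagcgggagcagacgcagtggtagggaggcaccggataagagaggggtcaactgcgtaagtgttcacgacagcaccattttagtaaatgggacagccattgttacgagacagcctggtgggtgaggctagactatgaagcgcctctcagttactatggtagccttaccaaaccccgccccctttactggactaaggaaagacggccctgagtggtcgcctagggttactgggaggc
The 1a window holds 1 match and the 1b window none. CAGCTG occurs in 4271 of 32851 such mouse windows (13.0%), so the match is a description and no more.

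Tpm2 rose as a gene in bulk MPC and differentiated myoblasts, and none of its shares passed in either against bulk myoblasts. Tpm2-202, with 6b and 9a, makes the skeletal muscle protein, and Tpm2-203, with 6a and 9d, the smooth muscle and cytoskeletal one. Tpm2-202 held 43.4%, 49.6% and 46.4% of Tpm2 in GFP+ MPC, 40.4%, 39.5% and 28.8% in GFP+ myoblasts, 34.3%, 33.8% and 32.9% in bulk MPC, 34.3%, 35.2% and 34.5% in differentiated myoblasts and 33.3%, 38.1% and 37.5% in bulk myoblasts. Its odds differed by -0.17 ± 0.17 in bulk MPC (adjusted p = 0.657 by limma) and -0.10 ± 0.17 in differentiated myoblasts (adjusted p = 0.823), each against bulk myoblasts.

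Between the sorted groups the 9d form of Tpm2 differed. Tpm2-203 held 37.8%, 31.3% and 30.4% of Tpm2 in GFP+ MPC, against 52.7%, 56.5% and 70.3% in GFP+ myoblasts, with no overlap. Its odds fell by 1.61 ± 0.22 (adjusted p = 0.00202 by limma), a call lost with edgeR's diffSpliceDGE (adjusted p = 0.664) and with the 2 groups alone (adjusted p = 0.107 by limma). Tpm2-202 was at 0.62 ± 0.17 there (adjusted p = 0.0688 by limma). It passed on shares of estimated counts (1.01 ± 0.19, adjusted p = 0.0233 by limma), over complete coding transcripts (1.22 ± 0.2, adjusted p = 0.00496), with a pseudocount of 2 TPM (adjusted p = 0.0337) and with no filter (adjusted p = 0.0372). Bulk MPC had Tpm2-203 at 31.9%, 34.8% and 33.9%, differentiated myoblasts at 33.3%, 33.5% and 32.2% and bulk myoblasts at 34.2%, 35.8% and 33.3%. Tpm2-203 odds were higher by 1.52 ± 0.22 in GFP+ myoblasts than in bulk myoblasts (adjusted p = 0.0015 by limma), and Tpm2-202 odds by 0.78 ± 0.17 in GFP+ MPC than in bulk MPC (adjusted p = 0.00978). On shares of estimated counts the last 2 were 0.90 ± 0.203 (adjusted p = 0.0667 by limma) and 0.51 ± 0.19 (adjusted p = 0.166), and neither passed with diffSpliceDGE (adjusted p = 1 each). The first was also lost with the 2 groups alone (adjusted p = 0.0877 by limma) and the second over complete coding transcripts (adjusted p = 0.131).

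**Figure D4:**
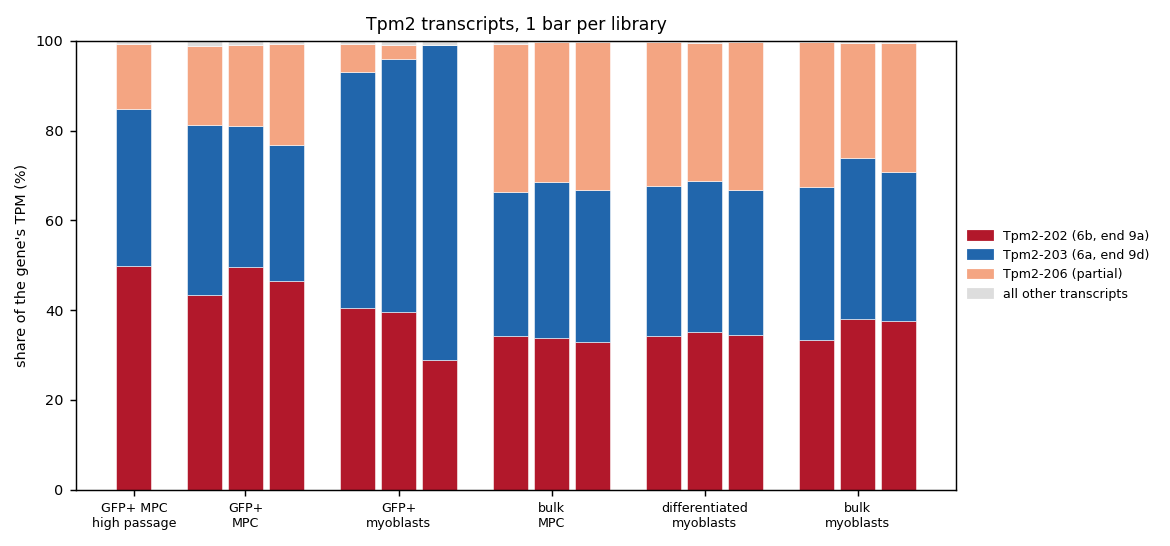
Share of Tpm2 TPM (percent) by transcript, 1 stacked bar per library. The 9 unsorted libraries are nearly alike, and Tpm2-203 runs from 30.4% to 37.8% in GFP+ MPC and from 52.7% to 70.3% in GFP+ myoblasts.

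A partial transcript bears on these Tpm2 values. Tpm2-206 is 401 bases long with no annotated end and took 17.6% to 22.4% of Tpm2 TPM in GFP+ MPC, 6.11% or less in GFP+ myoblasts, 31.1% to 33.0% in bulk MPC, 30.9% to 33.0% in differentiated myoblasts and 25.6% to 32.2% in bulk myoblasts. It took only 2.61% to 3.30% of the estimated counts in GFP+ MPC, 0.88% or less in GFP+ myoblasts and 4.13% to 5.85% in the unsorted groups. Its odds differed by -5.00 ± 1.05 between GFP+ myoblasts and bulk myoblasts (adjusted p = 0.0255 by limma), and in GFP+ myoblasts replicate 3, where it was listed at 0, the value rests on the pseudocount: without that library it was -3.16 ± 0.252 (adjusted p = 5.33e-05). The call was lost without bulk myoblasts replicate 1, 2 or 3 (adjusted p = 0.0924, 0.0672 and 0.0842 by limma), with a pseudocount of 0.1 TPM (adjusted p = 0.111), on shares of estimated counts (adjusted p = 0.0898) and with the 2 groups alone (adjusted p = 0.286). The last exon of Tpm2-202, 1292 bases as annotated, runs on past 9a through the 9d exon, so reads in that stretch do not by themselves separate the 2 ends. Tpm2-202 has 55 stretches of 31 bases of its own and Tpm2-203 has 131.

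Counted over all members, 3 of 34 transcripts passed between GFP+ MPC and GFP+ myoblasts, where 2.76% of all transcripts did. Bulk MPC against bulk myoblasts had 13 of 34, against 4.55% of all transcripts. Differentiated against bulk myoblasts also had 13 of 34, against 4.48%. Bulk MPC against differentiated myoblasts had 1 of 34, against 1.54%. GFP+ MPC against bulk MPC had 17 of 34, against 10.6%, and GFP+ myoblasts against bulk myoblasts had 8 of 34, against 2.15%. Among the 18 start and end classes 1 passed between the sorted groups (3.51% of all classes), 11 in bulk MPC (6.37%) and 11 in differentiated myoblasts (5.36%) against bulk myoblasts, and 2 between bulk MPC and differentiated myoblasts (1.95%). For GFP+ MPC against bulk MPC 13 classes passed (12% of all), and for GFP+ myoblasts against bulk myoblasts 8 (2.6%). The difference between the 2 sort effects passed for 9 of 34 transcripts (0.7% of all) and 6 of 18 classes (1.09%). Comparisons that share a group share its libraries, and the members of a gene share its total, so these counts are not independent of each other.

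**Figure D5:**
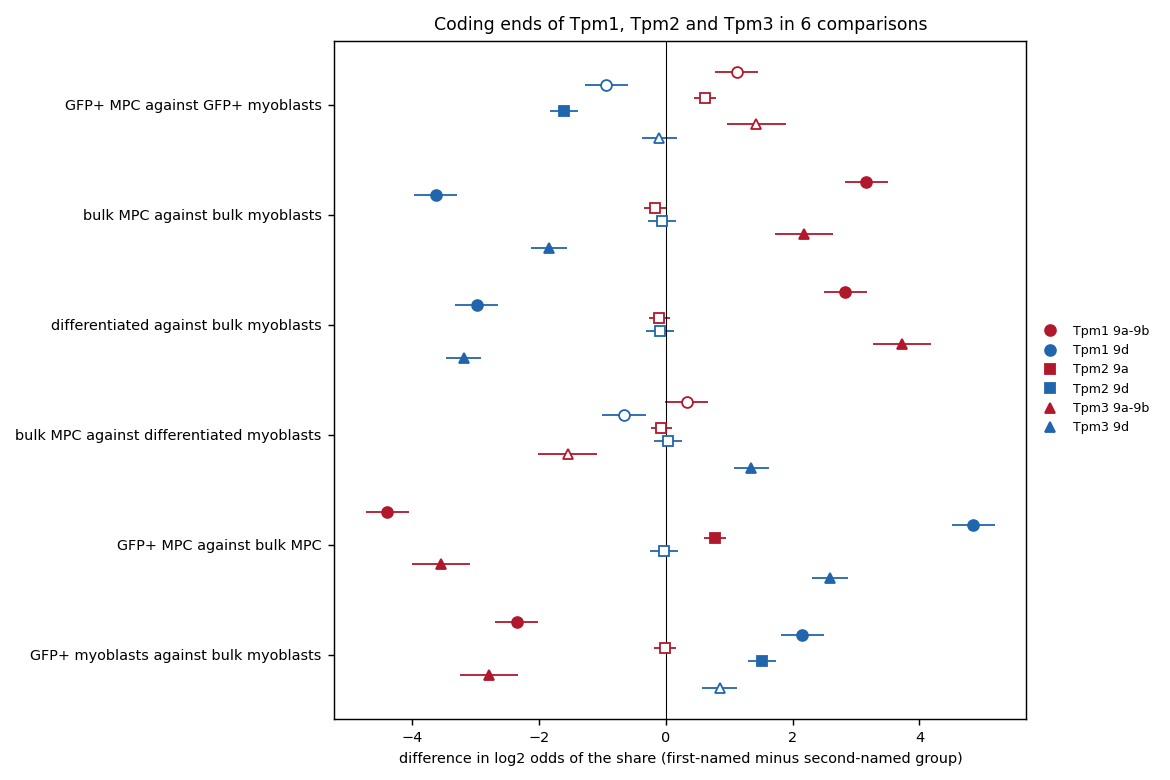
Difference in log2 odds (x axis) of the muscle-type ends (9a or 9a-9b, red) and the 9d ends (blue) of Tpm1, Tpm2 and Tpm3 in the 6 comparisons, with SE bars; filled symbols passed an adjusted p of 0.05 in limma. In bulk MPC and in differentiated myoblasts against bulk myoblasts the Tpm1 and Tpm3 ends lie on opposite sides of 0, and the Tpm2 ends lie within 0.17 of it.

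The high-passage GFP+ MPC library, described without a test, had Tpm1 at 647 TPM, Tpm2 at 590, Tpm3 at 229 and Tpm4 at 213, each inside the range of the 3 GFP+ MPC replicates except Tpm3, which was just under it. Its Tpm1 9a-9b share was 37.9% and its 9d share 40.7%, both outside the range of the GFP+ MPC replicates and within that of GFP+ myoblasts. Tpm3-205 held 1.38% of Tpm3 and Tpm2-203 held 35.0% of Tpm2.

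Genes whose products work with tropomyosin on the filament were counted from a list. Of 28 tested thin filament partners (troponins, actins, tropomodulins, leiomodins, nebulins, caldesmon and calponins among them), 12 were higher and 11 lower in bulk MPC than in bulk myoblasts, where 28.4% of all genes were higher and 30.1% lower. Their median log2 difference was -0.08 against -0.03 over the tested protein-coding genes. The same protein-coding background holds for every later median of a list, while the percentages are over all tested genes. Cald1, an actin binder of smooth muscle and non-muscle cells, fell by 3.54 ± 0.36 (adjusted p = 4.2e-06 by edgeR), while Tmod4, the tropomodulin of skeletal muscle that caps thin filaments, rose by 5.69 ± 0.58 (adjusted p = 4.2e-06). In differentiated against bulk myoblasts 13 were higher and 9 lower (25.6% and 28.6% of all genes; median 0.23 against -0.06), and Actg1, a cytoplasmic actin, fell by 3.14 ± 0.25 (adjusted p = 9.73e-07 by edgeR). Tmod4 was also higher in bulk MPC than in differentiated myoblasts, by 4.04 ± 0.53 (adjusted p = 6.53e-05 by edgeR), with means of 177 ± 14.6 and 13.4 ± 1.47 TPM (SD, n = 3 each). There 4 partners were higher and 6 lower (24.4% and 19.4% of all genes).

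Between the sorted groups 10 partners were higher and 7 lower in GFP+ MPC (26% and 22.7% of all genes), with a median of -0.01 against 0.07. Tnnc2, the fast troponin C, rose by 3.60 ± 0.38 (adjusted p = 6.87e-06 by edgeR), with 193 ± 107 TPM in GFP+ MPC and 16.9 ± 5.54 TPM in GFP+ myoblasts (SD, n = 3 each). In GFP+ MPC against bulk MPC 10 were higher and 16 lower (32.9% and 33.7% of all genes; median -2.78 against 0.02), and in GFP+ myoblasts against bulk myoblasts 3 were higher and 16 lower (12.7% and 17.4% of all genes; median -2.52 against 0.01). Lmod2, a leiomodin of striated muscle, fell by 5.71 ± 0.29 (adjusted p = 5.95e-09 by edgeR) in GFP+ MPC against bulk MPC and fell by 6.48 ± 0.32 (adjusted p = 2.72e-08) in GFP+ myoblasts against bulk myoblasts.

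Genes of splicing regulators were counted from a list of which 23 were tested. In bulk MPC against bulk myoblasts 4 were higher and 13 lower (28.4% and 30.1% of all genes; median -0.36 against -0.03), and in differentiated against bulk myoblasts 2 were higher and 11 lower (25.6% and 28.6% of all genes; median -0.27 against -0.06). Ptbp1, a repressor of muscle exons, in rat those of tropomyosin among them, averaged 41.3 ± 17.2 TPM in bulk MPC and 38.3 ± 2.93 in differentiated myoblasts, against 165 ± 12.7 in bulk myoblasts (SD, n = 3 each). It fell by 1.56 ± 0.27 in bulk MPC (adjusted p = 0.000247 by edgeR) and fell by 1.87 ± 0.27 in differentiated myoblasts (adjusted p = 7.72e-05). Rbm38 rose by 1.58 ± 0.22 in bulk MPC (adjusted p = 5.11e-05 by edgeR). Celf4, at -2.85 ± 0.32 (adjusted p = 8.79e-06 by edgeR), and Mbnl3, at -2.07 ± 0.55 (adjusted p = 0.00567), changed more than Ptbp1 in bulk MPC. So did Mbnl3, at -2.39 ± 0.57 (adjusted p = 0.00327 by edgeR), and Ptbp3, at -2.0 ± 0.21 (adjusted p = 6.9e-06), in differentiated myoblasts. Celf4 and Mbnl3 averaged only 6.04 and 1.2 TPM in bulk myoblasts.

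Sorted cells were compared with unsorted ones in the same list. In GFP+ MPC against bulk MPC 11 were higher and 9 lower (32.9% and 33.7% of all genes; median 0.12 against 0.02), with Ptbp1 higher by 2.09 ± 0.27 (adjusted p = 1.35e-05 by edgeR) and Rbfox1, a regulator of muscle exons, lower, at -5.86 ± 0.42 (adjusted p = 8.5e-08). In GFP+ myoblasts against bulk myoblasts 10 were higher and 6 lower (12.7% and 17.4% of all genes; median 0.36 against 0.01), with Ptbp1 higher by 1.07 ± 0.26 (adjusted p = 0.00848 by edgeR). Between the sorted groups 1 was higher and 7 lower in GFP+ MPC (26% and 22.7% of all genes; median -0.08 against 0.07), and Rbfox1 fell by 3.80 ± 0.39 (adjusted p = 5.99e-06 by edgeR), at 2.83 ± 1.92 TPM in GFP+ MPC and 37.4 ± 15.3 TPM in GFP+ myoblasts (SD, n = 3 each). Mbnl3 changed more than Rbfox1 between the sorted groups, at -4.28 ± 0.58 (adjusted p = 5.58e-05 by edgeR). It also changed more than Ptbp1 in GFP+ myoblasts against bulk myoblasts, at 1.55 ± 0.48 (adjusted p = 0.0288 by edgeR). Rbm38, at -3.34 ± 0.24 (adjusted p = 7.68e-08 by edgeR), changed more than Ptbp1 in GFP+ MPC against bulk MPC. In bulk MPC against differentiated myoblasts 4 were higher and 3 lower, where 24.4% and 19.4% of all genes were. Whether any of these genes bears on the shares was not tested.

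Among 13797 protein-coding genes, those whose level over the 15 libraries lay closest to each tropomyosin gene were found by the root mean square difference of centred log2 CPM. Closest to Tpm1 were Fam210b (0.25), 2310022B05Rik (0.34) and Plcxd2 (0.35), where the median over all genes was 1.30. Closest to Tpm2 were Ptges3l (0.20) and Tmem38b (0.22), which encodes a cation channel of the sarcoplasmic reticulum family, against a median of 1.58. Closest to Tpm3 were Wasf1 (0.15), Uxs1 (0.20) and Ift74 (0.21), against 1.00, and closest to Tpm4 were Zfp36l2 (0.30), Tuba1c (0.31), an alpha tubulin, and Ugdh (0.32), against 1.88.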

How the data were processed

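RNA was polyA-enriched, made into stranded libraries and sequenced from one end, per the labels' protocols. The deposited estimated counts and the TPM values (abundances from those counts and effective lengths, scaled to one total) were made by the authors with fastp 0.20.0, kallisto 0.46.1 and the GRCm39 build, per the submitters' processing notes. The annotation release and strand setting are not given in the sources used here. kallisto shares a read among all transcripts it fits, so levels of transcripts with no sequence of their own rest on that estimation.

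Transcript names and exons were taken by transcript ID from GENCODE M21 (GRCm38). Of 121798 transcripts 120739 matched, in 35613 genes, and the other 1059 held 0.407% to 0.777% of TPM. Of the 45 tropomyosin transcripts 43 had the same length in both sources. Estimated counts were summed per gene, rounded and tested with edgeR 4.0.16 (R 4.3.3; quasi-likelihood test, TMM, filterByExpr with a minimum count of 10). Shares were tested with limma 3.58.1 on log2 odds with a pseudocount of 0.5 TPM, for transcripts or classes of mean TPM at least 0.5 in genes of at least 1. All fits used 15 libraries in 5 groups with Benjamini-Hochberg adjustment over all features and a threshold of 0.05. Tables were read with Python 3.11.15 and pandas 2.3.3, and the tests were run on simulated data with known changes.

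The labels call the samples biological replicates. Replicates of a group differed by 9.78 to 58.6 in chi-square per degree of freedom, so none was a repeat deposit. Same-numbered libraries deviated together (correlations of 0.13 to 0.16 in all 3 pairs) for bulk MPC against bulk myoblasts, and there the replicate block changed no call of a tropomyosin gene, transcript or class. Correlations were 0.04 to 0.14 for differentiated against bulk myoblasts and -0.02 to 0.21 for bulk MPC against differentiated myoblasts, with 2 pairs above 0.1 in each. In differentiated against bulk myoblasts the block removed the calls of Tpm1-205 and Tpm3-207, given below. The alternatives were other pseudocounts, filters, scalings, count shares, protein-coding transcripts alone, DESeq2 1.42.0, edgeR's diffSpliceDGE, fits of the 2 groups alone, a replicate block and fits without each library. Complete coding transcripts alone were added after seeing the data. Transcripts are named at a mean share of 5% in any replicated group, and listed partner genes by the largest changes, up to 4 per list and comparison. A further gene with a pattern close to that of Tpm2 is not reported here. The members and lists were chosen with earlier results of these data known.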

Additional observations from a re-analysis of the deposited data

Results flagged for a closer look

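The effect of sorting for GFP differed between the MPC culture and the myoblast culture, by a test of the difference itself (GFP+ MPC minus bulk MPC, less GFP+ myoblasts minus bulk myoblasts, on the log2 scale). All 4 gene sums were picked out by it in edgeR: Tpm1 at -2.75 ± 0.41 (adjusted p = 0.000251), Tpm2 at -1.33 ± 0.32 (adjusted p = 0.00581), Tpm3 at 0.75 ± 0.20 (adjusted p = 0.011) and Tpm4 at 1.31 ± 0.46 (adjusted p = 0.0402).

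Among Tpm1 ends, the difference in log2 odds in limma was 2.70 ± 0.48 for 9d (adjusted p = 0.0175), 3.90 ± 0.66 for 9c (adjusted p = 0.0121), 2.00 ± 0.23 for 9b (adjusted p = 0.00261) and 2.07 ± 0.23 for 9a read on (adjusted p = 0.00233). The 9a-9b end did not pass (-2.04 ± 0.48, adjusted p = 0.0663 by limma). Among transcripts it was 2.78 ± 0.32 for Tpm1-216 (adjusted p = 0.00333 by limma), 2.16 ± 0.23 for Tpm1-207 (adjusted p = 0.00329) and 3.49 ± 0.72 for Tpm1-210 (adjusted p = 0.0482). Tpm2-203 was at -1.55 ± 0.31 (adjusted p = 0.0402 by limma) and Tpm3-204 at 5.12 ± 0.92 (adjusted p = 0.0261). Tpm1-213 came out at 7.08 ± 0.55 (adjusted p = 0.00031 by limma), a size that depends on the pseudocount because bulk MPC was listed at 0. The RNA kit changed with the sort in both cultures, and its part in these differences was not tested. Passage changed with the sort in the myoblast culture alone (5 to 6 in GFP+ myoblasts and 3 in bulk myoblasts), so the difference between the cultures cannot be told apart from passage.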

How the results depend on the processing

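Of 1464 single values recomputed over 105 results, 1356 kept their direction and side of the threshold, 91 lost their call, 11 gained one and 6 turned sign. Those 6 were uncalled and came from leaving out a library: without each library, Tpm2 in GFP+ MPC against GFP+ myoblasts ran from -0.34 to 0.14, Tpm2 in bulk MPC against differentiated myoblasts from -0.13 to 0.04, and the Tpm1 1b start in GFP+ MPC against GFP+ myoblasts from -0.07 to 1.03. With a replicate block, differentiated against bulk myoblasts went to 11 transcripts, without Tpm1-205 (1.15 ± 0.302, adjusted p = 0.0649 by limma) and Tpm3-207 (adjusted p = 0.0633), and GFP+ myoblasts against bulk myoblasts to 9, with Tpm1-216 gained (adjusted p = 0.028). Between the sorted groups Tpm3-207 was lost (adjusted p = 0.0628 by limma) and Tpm3-208 gained (adjusted p = 0.0413). In the difference of the sort effects Tpm3-204 (adjusted p = 0.0546 by limma), Tpm2-203 (adjusted p = 0.0776) and the Tpm2 9d end (adjusted p = 0.0681) were lost. No other tropomyosin call changed with the block.

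The causes of the following shifts in counts were not tested. For GFP+ MPC against GFP+ myoblasts, 3 transcripts became 9 with a pseudocount of 2 TPM, 9 with no filter and 1 with the 2 groups alone, and 1 class became 3 with a pseudocount of 2 TPM, 2 with count shares, 2 with complete coding transcripts and 0 with the 2 groups alone (limma; 8 at an unadjusted p under 0.05). For bulk MPC against bulk myoblasts, 13 transcripts became 23 with a pseudocount of 2 TPM, 20 with no filter and 7 with diffSpliceDGE, which gave 6 in place of 13 for differentiated against bulk myoblasts. For bulk MPC against differentiated myoblasts, 1 transcript became 4 with a pseudocount of 2 TPM, 3 with no filter, 2 with count shares, 3 with complete coding transcripts, 2 with diffSpliceDGE and 0 with the 2 groups alone (limma; 7 unadjusted), and 2 classes became 4 with no filter, 6 with complete coding transcripts and 0 with the 2 groups alone (limma; 7 unadjusted). For GFP+ MPC against bulk MPC, 17 transcripts became 27 with a pseudocount of 2 TPM. For GFP+ myoblasts against bulk myoblasts, 8 transcripts became 3 with count shares, 5 with diffSpliceDGE and 2 with the 2 groups alone, and 8 classes became 4 with the 2 groups alone. With the 2 groups alone all 4 gene sums passed in differentiated against bulk myoblasts and in GFP+ myoblasts against bulk myoblasts, in place of 3.

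Without each library in turn, gene counts ran from 1 to 2 in bulk MPC against differentiated myoblasts, where bulk MPC replicate 2 decides Tpm4. Transcript counts ran from 1 to 4 in GFP+ MPC against GFP+ myoblasts and from 1 to 2 in bulk MPC against differentiated myoblasts. Against bulk myoblasts they ran from 9 to 13 for bulk MPC and from 10 to 12 for differentiated myoblasts, where all libraries gave 13 each. The Tpm1-205 call was lost in all 6 such fits for differentiated myoblasts (adjusted p = 0.0719 to 0.178 by limma). For bulk MPC it was kept in 1 of 6 (adjusted p = 0.0474 to 0.115 by limma). Both Tpm1-205 calls were also lost with diffSpliceDGE. Class counts ran from 7 to 11 in bulk MPC against bulk myoblasts, the lowest without bulk MPC replicate 1, and from 1 to 3 in bulk MPC against differentiated myoblasts. The Tpm1 9a-9b calls against bulk myoblasts held in all 6 such fits each, at 2.99 to 3.34 for bulk MPC and 2.67 to 2.97 for differentiated myoblasts. With 3 libraries a group and TPM that rest on estimated counts, shares near 0 carry the largest uncertainty.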
